A study of Mus musculus with 36 samples.

Results

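The nuclear transcriptome of cauda spermatozoa was compared between male mice on a high-fat diet (HFD) and on a low-fat diet (LFD). Members are the genes of the sperm count table that do not lie on the mitochondrial chromosome, 54801 of 54838 genes, and their counts were scaled within the nuclear counts alone. The mice were C57BL/6N males (C57BL/6 wildtype in the labels) aged 6 weeks at the start, fed for 2 weeks on a diet with 60% (HFD) or 10% (LFD) of its energy as fat. Spermatozoa swam out of minced cauda epididymis and vas deferens and were incubated in a cell lysis buffer with SDS and Triton X-100, and the study kept preparations in which microscopy showed no somatic cell. Each diet has 3 libraries of total RNA. Neither the labels nor the column names say whether the samples of a diet came from separate animals or from pools, so p-values measure the spread between these samples, which may be partly technical. The series holds 36 samples in all, of which these 6 are used here. The question is which nuclear transcripts, beyond those that act in mitochondria, differed in sperm after the diet.

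Libraries are called HFD-a to HFD-c and LFD-a to LFD-c, lettered within a diet by rising nuclear counts. Nuclear genes took 471297, 771608 and 889679 counts in HFD-a, HFD-b and HFD-c, and 1066801, 1078257 and 1447186 in LFD-a, LFD-b and LFD-c. Levels are counts per 1000000 of the TMM-scaled nuclear library size (CPM). A count of 0 allows a level of up to 3.69 to 6.83 CPM in an HFD library and up to 1.53 to 2.43 in an LFD library, counting error only. Of the 54801 genes, 26876 had a count in some library and 8866 passed the filter on low counts. The HFD libraries are the shallower ones for nuclear genes, and every value below rests on that unequal depth. Replicates varied widely: the common biological coefficient of variation was 0.60, and Pearson's r of log2 CPM across genes ran from 0.595 to 0.645 within HFD and from 0.733 to 0.858 within LFD. Between diets it ran from 0.502 to 0.727, so the libraries did not group cleanly by diet. HFD-c had an r of 0.698, 0.727 and 0.715 with LFD-a, LFD-b and LFD-c. These are above its r with HFD-a (0.626) and HFD-b (0.645).

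A spermatozoon leaves the testis with condensed chromatin and little or no transcription, so its RNA is held to be left from spermatids. Those transcripts encode protamines, parts of the tail, glycolytic enzymes made for sperm, and acrosomal proteins. In the epididymis the cells bathe in proteins secreted by the epithelium, such as cysteine-rich secretory proteins, lipocalins, beta-defensins and protease inhibitors, and they take up vesicles from it. An RNA sample of cauda sperm can thus hold both germ-cell and epididymal transcripts. In such bulk samples, fewer cells of a type and less RNA per cell cannot be told apart.

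Most germ-cell transcripts had higher values on HFD, and no gene passed the threshold of the main test, that of edgeR, while DESeq2 called 254 genes. Of 148 tested genes on 7 lists of spermatid and sperm functions, 127 had a log2 fold change above 0, as did 48% of all 8866 tested genes. Their median was 1.20 against -0.05 over all genes. Of 77 tested genes on 3 epididymal lists, 52 were below 0, with a median of -0.34. All lists were chosen with earlier results of these data known, so their counts and medians are descriptions without a test. The quasi-likelihood test of edgeR called 0 of 8866 genes at an adjusted p under 0.05 (0%), the smallest adjusted p being 0.248. The unadjusted p was under 0.05 for 716 genes with higher values on HFD (8.08%) and for 353 with lower values (3.98%). The 254 genes of DESeq2 (2.86%) were 233 higher on HFD (2.63%) and 21 lower (0.237%), with 17 and 0 of the 148 germ-cell genes among them, and the re-implemented NOISeq called 97 genes and limma-voom 0. All 3 HFD libraries lay above all 3 LFD libraries for 716 genes (8.08%) and below them for 972 (11%). Of the 148 germ-cell genes, 41 had an unadjusted p under 0.05 and higher values on HFD (27.7%), and 40 lay higher without overlap (27%). Scaling sets part of these directions. With nuclear library totals in place of TMM factors the median of all tested genes moved from -0.05 to -0.66 and that of germ-cell genes to 0.49, with 102 of 148 above 0. Genes without overlap were then 294 above (3.32%) and 2195 below (24.8%), and 197 had an unadjusted p under 0.05 and higher values on HFD (2.22%). Among germ-cell genes 13 had such a p (8.78%) and 11 lay higher without overlap (7.43%). Without HFD-b the germ-cell median was 0.66, and the medians of the 7 lists ran from 0.24 to 0.86.

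Both classes varied widely among libraries of 1 diet. Genes of the germ-cell lists took 8.49%, 9.03% and 4.72% of nuclear counts in HFD-a, HFD-b and HFD-c, and 5.70%, 3.79% and 1.98% in LFD-a, LFD-b and LFD-c. LFD-a was above HFD-c, so the diets overlap. Epididymal genes took 4.07%, 1.94% and 4.22% on HFD, and 4.15%, 7.69% and 11.1% on LFD. Here LFD-a lay among the HFD libraries, and LFD-c was the highest. The ratio of germ-cell to epididymal counts, which no scaling can change, was 2.09, 4.65 and 1.12 on HFD and 1.37, 0.493 and 0.178 on LFD, a mean of 2.62 ± 1.83 (SD, n = 3) against 0.681 ± 0.619 (SD, n = 3). HFD-b was the highest and LFD-c the lowest, and LFD-a lay above HFD-c.

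**Figure D1:**
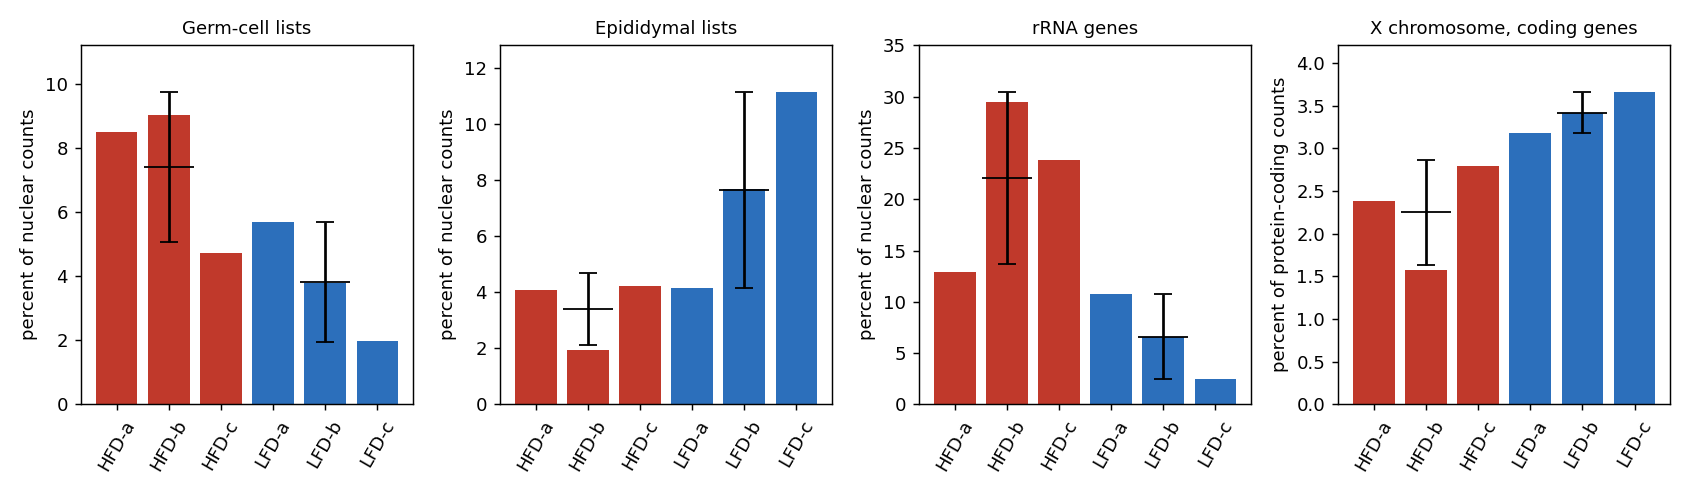
Share of counts in each library, with HFD in red and LFD in blue. The panels give germ-cell lists, epididymal lists and rRNA genes in percent of nuclear counts, and protein-coding genes of the X chromosome in percent of protein-coding counts; black marks are the mean and SD of 3 libraries. Germ-cell shares of LFD-a (5.70%) and HFD-c (4.72%) overlap, while the rRNA share is at least 12.9% in every HFD library and at most 10.8% in every LFD library.

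**Figure D2:**
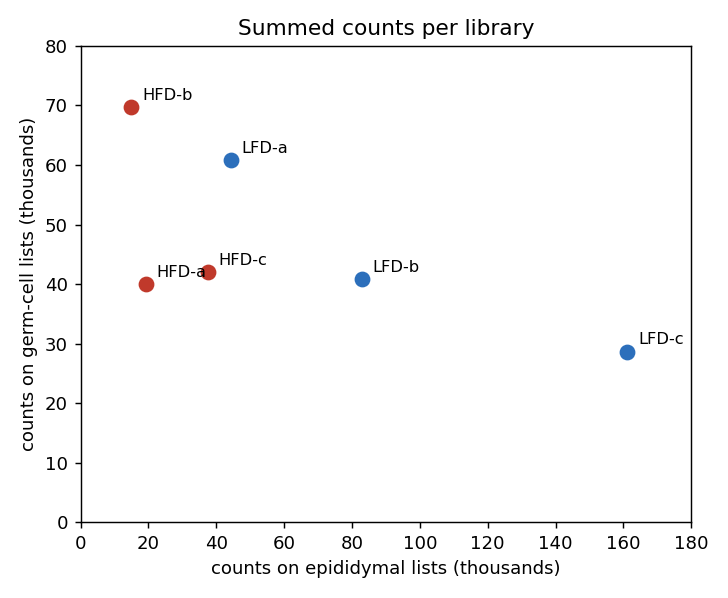
Counts summed over the epididymal lists (x axis, plotted in units of 1000) and over the germ-cell lists (y axis, in the same units) in each library. HFD-b holds 69668 germ-cell and 14969 epididymal counts, and LFD-c holds 28641 and 161204.

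Transcripts of the sperm tail were the most abundant germ-cell messages. Smcp, a cysteine-rich protein of the mitochondrial capsule in the midpiece, lies on chromosome 3 of GRCm38 from 92583867 to 92588997. It had 26631, 43120 and 13002 CPM on HFD and 10445, 7368 and 2110 on LFD, a log2 fold change of 2.05 (SE 0.94, unadjusted p = 0.0459 from edgeR). Every HFD library was above every LFD library, by the narrow gap between HFD-c and LFD-a. Odf1, a protein of the outer dense fibres, had 19035, 31717 and 10705 CPM on HFD and 8182, 4890 and 2234 on LFD, a log2 fold change of 2.01 (SE 0.87). The order of the libraries was that of Smcp. Akap3, a kinase anchor of the fibrous sheath, had the largest fold change of the list at 3.44 (SE 0.78, adjusted p = 0.248 from edgeR and 0.00315 from DESeq2). Akap3 ran from 2.21 to 3.84 over the settings run for single genes. Its values of 54.7, 211 and 33.2 CPM on HFD and 11.4, 10.3 and 5.61 on LFD rest on 11 to 97 counts a library. Its partner Akap4 differed less, with 456, 1968 and 927 CPM against 930, 560 and 268, and the groups overlap. Of 50 genes on the tail and sheath list, 49 had a count and 32 were tested. Of these 32, 30 were above 0 and 11 had an unadjusted p under 0.05 in that direction (34.4%, where all tested genes gave 8.08%). In the same direction 14 did not overlap between diets (43.8%, where all tested genes also gave 8.08%). With nuclear totals 5 had such a p (15.6%, where all tested genes gave 2.22%) and 5 did not overlap (15.6%, against 3.32%). Without HFD-b 34 genes were tested, and 5 had such a p (14.7%, against 4.91%). Members of the list above 0 also include Oaz3 (1.92, SE 0.66), the axonemal dynein Dnah8 (1.94, SE 0.61), Cfap65 (2.31, SE 0.58) and Actl7a (2.54, SE 0.72). Ropn1l, a protein of the radial spokes, was lowest at -0.54 (SE 0.87), and its libraries overlap.

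Messages for the proteins that pack sperm DNA were present in every library. Prm2, a protamine, had 2642, 7835 and 2588 CPM on HFD and 3229, 1618 and 805 on LFD, a log2 fold change of 1.21 (SE 0.72). LFD-a was above both HFD-a and HFD-c. Prm1, the other protamine, had 688, 1372 and 552 CPM on HFD and 536, 345 and 130 on LFD, a log2 fold change of 1.37 (SE 0.59). HFD-c exceeded LFD-a by little. The transition proteins Tnp1 and Tnp2, which precede protamines in spermatids, overlapped between diets, with a log2 fold change of 1.22 (SE 0.62) for Tnp1. The largest difference was that of Tssk6, a testis-specific kinase needed for sperm chromatin condensation. It had 260, 224 and 74.99 CPM on HFD and 60.03, 22.8 and 15.8 on LFD, a log2 fold change of 2.50 (SE 0.65, adjusted p = 0.248 from edgeR and 0.0124 from DESeq2). Of 12 tested genes of this list, 11 were above 0, with a median of 1.30. Without HFD-b 9 of 14 were, with a median of 0.47, and with nuclear totals the median was 0.54. H1f0, a linker histone not restricted to germ cells, was the other one, and its libraries overlap.

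Genes of motility signalling were mostly above 0, and those of sperm glycolysis less uniformly. Adcy10, the soluble adenylyl cyclase that bicarbonate activates in sperm, had 88.8, 176 and 55.3 CPM on HFD and 24.3, 8.10 and 8.15 on LFD. Its log2 fold change was 2.98 (SE 0.70, adjusted p = 0.248 from edgeR and 0.00436 from DESeq2), and the groups do not overlap. All 21 tested genes of the motility list were above 0, with a median of 1.25, among them the kinases Tssk3 (2.08, SE 0.73) and Tssk2 (1.34, SE 0.54), the phosphodiesterase Pde1c (1.58, SE 0.61) and the calcium channel subunit Catsper2 (1.63, SE 0.68). Of these 21, 6 had an unadjusted p under 0.05 (28.6%, where all tested genes gave 8.08%). Without HFD-b 24 genes were tested, of which 18 were above 0 and 2 had such a p with higher values on HFD (8.33%, against 4.91%). With nuclear totals 16 of 21 were above 0 and 1 had such a p (4.76%, against 2.22%). Pgk2, the phosphoglycerate kinase of late germ cells, had 5402, 7900 and 2311 CPM on HFD and 2622, 1469 and 548 on LFD, a log2 fold change of 1.75 (SE 0.74). LFD-a lay above HFD-c. The hexokinase gene Hk1 had a log2 fold change of 1.68 (SE 0.68) and Gapdhs, the glyceraldehyde-3-phosphate dehydrogenase of the fibrous sheath, one of 1.36 (SE 0.59). Both overlapped between the diets. The glycolysis list had 15 of 20 tested genes above 0 and 4 without overlap (20%, where all tested genes gave 8.08%), and a median of 0.84. With nuclear totals 11 of 20 were above 0, with a median of 0.14, and 0 lay higher without overlap (against 3.32%) and 0 lower (against 24.8%). Slc16a1, a lactate transporter of many tissues, was lowest at -0.81 (SE 0.52).

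Acrosomal genes were mostly too rare to test. Of 50 genes on that list, 47 had a count and 15 were tested, of which 12 were above 0, with a median of 1.31. An unadjusted p under 0.05 with higher values on HFD was found for 6 (40%, where all tested genes gave 8.08%). Higher without overlap lay 5 (33.3%, where all tested genes also gave 8.08%). With nuclear totals the median was 0.67, 0 had such a p (against 2.22%) and 2 lay higher without overlap (13.3%, against 3.32%). Without HFD-b 21 genes were tested, and 2 had such a p (9.52%, against 4.91%). Crisp2, a secretory protein of the acrosome and tail, was the most abundant, with 5910, 7236 and 2382 CPM on HFD and 2275, 1292 and 522 on LFD. Its log2 fold change was 1.92 (SE 0.72, unadjusted p = 0.0180 from edgeR), with HFD-c just above LFD-a. Adam5 (1.33, SE 0.54), Adam3 (1.85, SE 0.72) and Acrbp (1.61, SE 0.74) did not overlap either. Spam1, the sperm surface hyaluronidase, had 9, 15 and 32 counts on HFD and 14, 1 and 0 on LFD, in deeper LFD libraries. Pgap1, which trims GPI anchors and is not restricted to sperm, went the other way with 54.7, 111 and 171 CPM on HFD and 173, 342 and 469 on LFD, a log2 fold change of -1.54 (SE 0.55).

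Genes that act earlier in spermatogenesis were represented unevenly. Syce2, of the central element of the synaptonemal complex, was the most abundant of 22 tested genes of meiosis and the piRNA pathway, with 3163, 4575 and 1073 CPM on HFD and 982, 495 and 174 on LFD. Its log2 fold change was 2.42 (SE 0.74, adjusted p = 0.258 from edgeR and 0.0142 from DESeq2). The groups do not overlap, though HFD-c and LFD-a lie close together. Smc1b, a meiotic cohesin, had a log2 fold change of 2.68 (SE 0.75) and Mov10l1, a helicase of piRNA production, one of 2.66 (SE 0.84). Tdrd5 had the largest fold change of the list at 4.08 (SE 1.25), from 6, 16 and 14 counts on HFD and 4, 0 and 1 on LFD. Of the 22, 15 were above 0 and 7 below, among them Piwil4 (-0.96, SE 1.29), with a median of 0.71 that was 0.24 without HFD-b and 0.05 with nuclear totals. Markers of earlier germ cells were rare by comparison. Sycp3 had at most 4 counts in a library, Stra8 at most 6 and Dazl at most 3, and Piwil1 had 0, 26 and 3 counts on HFD and 27, 0 and 1 on LFD. Sycp1 and Ddx4 lay between 2.55 and 43.5 CPM. Markers of late spermatids and spermatozoa summed to between 28225 and 87691 CPM on HFD and between 5686 and 23951 on LFD. Libraries thus carried the late germ-cell markers that their label calls for.

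Regulators of spermatid transcription and RNA were above 0 in 23 of 26 tested cases, with a median of 1.00, and 6 lay higher without overlap (23.1%, where all tested genes gave 8.08%). With nuclear totals 16 were above 0, with a median of 0.31, and 0 lay higher without overlap (against 3.32%) and 3 lower (11.5%, against 24.8%). Without HFD-b the median was 0.65. Klhl10, a substrate adaptor of the ubiquitin ligase subunit Cul3 in spermatids, had 1804, 3201 and 969 CPM on HFD and 953, 364 and 202 on LFD, a log2 fold change of 1.98 (SE 0.68). HFD-c and LFD-a were nearly level. Rfx2, a factor of the RFX family that drives ciliary genes in spermatids, had 292, 677 and 111 CPM on HFD and 120, 86.2 and 28.03 on LFD, a log2 fold change of 2.20 (SE 0.68, adjusted p = 0.260 from edgeR and 0.0351 from DESeq2). One LFD library, LFD-a, exceeded HFD-c. Crem, the cyclic-AMP-responsive factor of the spermatid programme, differed by 1.09 (SE 0.52). Pabpc1, a poly(A)-binding protein of most cells, was below 0 at -0.47 (SE 0.54).

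Rfx2 and Crem belong to families with known binding letters, so the 250 bases before each RefSeq gene start (GRCm38.p6) were searched on both strands. GTTGCC, letters of the site that the RFX family binds, was found for 10 of 41 tail and sheath genes with a sequence (24.4%), for 5 of 28 spermatid regulators (17.9%), for 5 of 20 glycolysis genes (25%) and for 2 of 26 motility genes (7.69%). Over all germ-cell lists the share was 17.6% and over all epididymal lists 12.4%, and among lists with medians below 0 it ran from 0% for accessory gland genes to 20.7% for beta-defensins. The erythroid list had the largest share of any list, with 3 of 7 genes (42.9%). It was found for 13.2% of tested genes and for 11.8% of all 27025 symbols. TGACGTCA, the palindrome that CREM can bind, was found for 3 of 28 regulators (10.7%) and for 1 of 41 tail genes (2.44%), for 3.32% of tested genes and for 1.77% of all symbols. Its share was larger in the structural RNA (18.2%), endothelial (14.3%) and immediate early (13.3%) lists. Neither Smcp, Akap3, Prm1, Prm2 nor Adcy10 holds these letters in its window. Of 5 tested tail genes with GTTGCC, Ropn1l (-0.54) and Cfap44 (-0.28, SE 0.63) were below 0, as was the regulator Ube2b (-0.47, SE 0.58). The stretches around a match are shown for 4 genes above 0, chosen after their values were seen, 5′ to 3′ on the strand of the gene with matches in capitals. Spag16, of the axoneme, lies on the plus strand at chr1:69826827-69826912, and Tcp11, of the sperm tail, on the minus strand at chr17:28080718-28080803. Kif17, a kinesin that carries a CREM cofactor in spermatids, is at chr4:138262138-138262223 (plus), and Rfx2 at chr17:56831079-56831164 (minus).
Spag16: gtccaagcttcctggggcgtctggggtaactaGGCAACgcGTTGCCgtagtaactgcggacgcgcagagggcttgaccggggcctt
Tcp11: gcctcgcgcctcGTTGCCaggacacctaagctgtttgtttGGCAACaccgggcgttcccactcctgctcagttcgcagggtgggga
Kif17: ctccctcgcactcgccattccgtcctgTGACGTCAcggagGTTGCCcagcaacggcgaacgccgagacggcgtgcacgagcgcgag
Rfx2: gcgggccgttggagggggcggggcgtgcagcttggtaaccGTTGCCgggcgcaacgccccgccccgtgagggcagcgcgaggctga
Spag16 and Tcp11 each carry GTTGCC in both orientations, and Kif17 carries both motifs. Their log2 fold changes were 1.82 (SE 0.69) for Spag16, 1.60 (SE 0.67) for Tcp11 and 1.87 (SE 0.69) for Kif17. These matches are letters in a window, not measured binding.

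**Figure D3:**
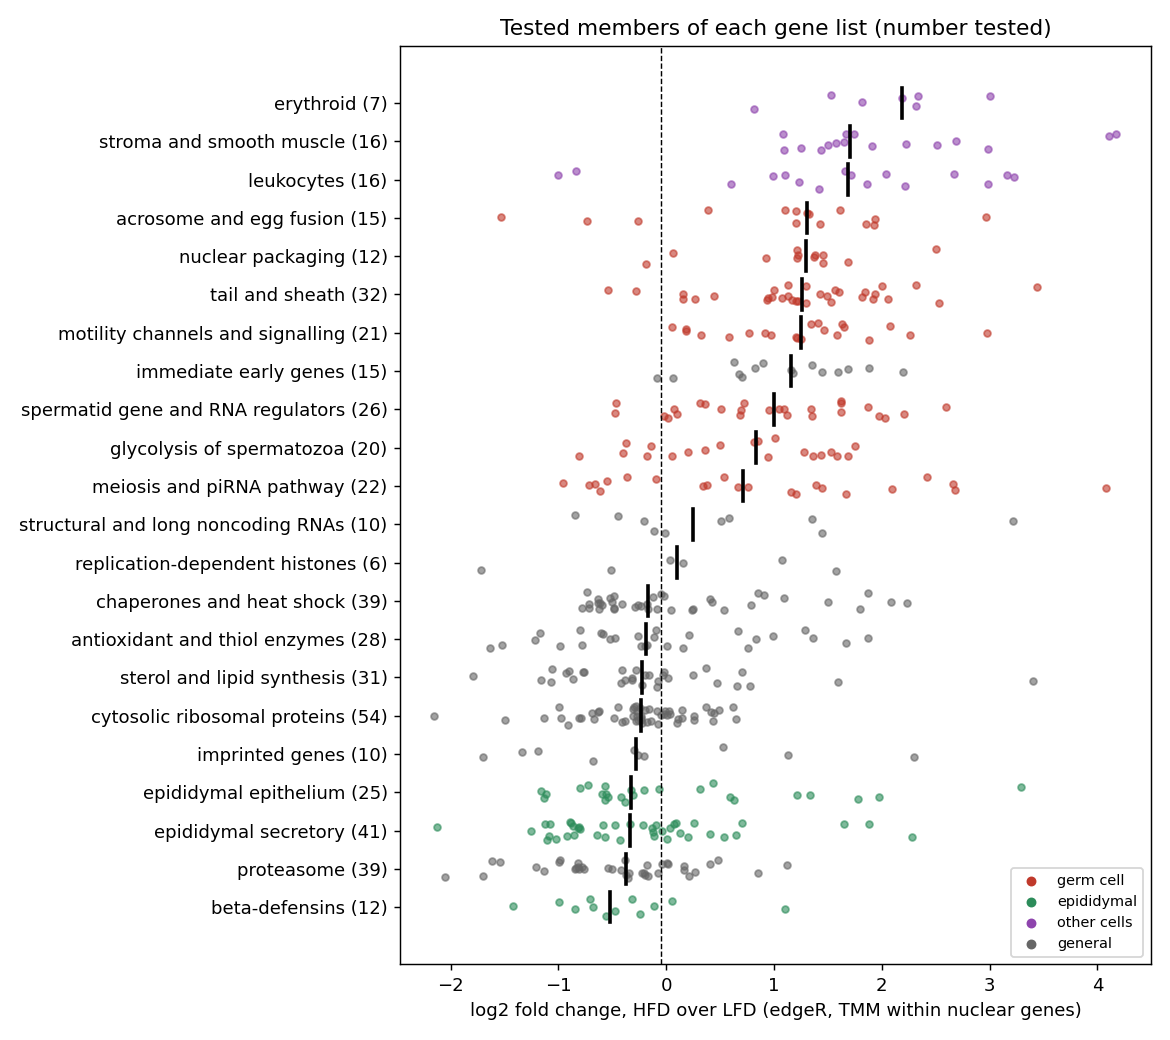
Log2 fold change of HFD over LFD for each tested member (dot) of lists with at least 5 tested genes, coloured by class; black bars are medians and the dashed line is the median of all tested genes, -0.05. The 7 germ-cell lists have medians from 0.71 to 1.31, and those of the 3 epididymal lists run from -0.52 to -0.33.

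Epididymal secretory genes took 3.63%, 1.73% and 3.77% of nuclear counts on HFD and 3.58%, 6.97% and 10.4% on LFD. Crisp1, the secretory protein that coats sperm in the epididymis, had 13077, 12701 and 13002 CPM on HFD and 5846, 17536 and 30643 on LFD, a log2 fold change of -0.48 (SE 0.86). The 3 HFD libraries were nearly level, while the LFD libraries lay on both sides of them. Spink8, a Kazal-type protease inhibitor, had 3387, 2920 and 4659 CPM on HFD and 2787, 6841 and 11186 on LFD (-0.92, SE 0.71). Adam7, a membrane protein that the epithelium hands to sperm, had 895, 344 and 1372 CPM on HFD and 1274, 1608 and 1950 on LFD (-0.89, SE 0.59). Cd52, a GPI-anchored antigen also passed to sperm, had 3391, 1877 and 3737 CPM on HFD and 3570, 4728 and 5044 on LFD (-0.57, SE 0.62). For none of these 4 did the diets separate. Of 77 genes on the secretory list, 66 had a count and 41 were tested, of which 27 were below 0 and 6 did not overlap in that direction (14.6%, where all tested genes gave 11%), or 10 with nuclear totals (24.4%, against 24.8%). The median was -0.34, and -0.12 without LFD-c. The 6 include the protease inhibitors Wfdc16 (-1.25, SE 0.62), Wfdc10 (-0.82, SE 0.53) and Wfdc9 (-1.11, SE 0.71) and the ribonuclease family member Rnase12 (-0.89, SE 0.47). In each of these HFD-b, the library richest in germ-cell counts, was the lowest. Pate1 had the lowest fold change at -2.13 (SE 0.80, unadjusted p = 0.0178 from edgeR), with 27.3, 4.35 and 70.1 CPM on HFD and 40.6, 181 and 239 on LFD. Sult1e1, an oestrogen sulfotransferase, had the highest at 2.28 (SE 1.16), from 0 to 16 counts a library.

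Beta-defensins, antimicrobial peptides of the epididymal lumen, had a count for 31 of 43 genes and 12 were tested, of which 10 were below 0. Defb28 had 681, 353 and 723 CPM on HFD and 951, 1163 and 703 on LFD, a log2 fold change of -0.68 (SE 0.51). None of the 12 separated the diets, where 11% of all tested genes lay lower without overlap and 8.08% higher. Without HFD-b the median of the list went from -0.52 to -0.04. Several genes of the initial segment and caput were near 0, with at most 5 counts of Lcn5, 4 of Lcn8 and 8 of Cst11 in a library, and at most 14 of Rnase10. Gpx5, a glutathione peroxidase of the caput, was present at 43.3, 19.6 and 7.38 CPM on HFD and 14.6, 29.5 and 29.6 on LFD, which overlap. Genes of the epithelium itself gave a median of -0.33 over 25 tested, with 16 below 0. It was -0.09 without HFD-b and -0.04 without LFD-c. Their mean was 0.08. Cftr, the chloride channel, had a log2 fold change of 3.29 (SE 0.99, adjusted p = 0.251 from edgeR and 0.0194 from DESeq2) with 31.9, 43.5 and 14.8 CPM against 4.87, 1.47 and 2.55. Foxi1, the transcription factor of clear cells, had 38.7, 17.4 and 17.2 CPM on HFD and 71.4, 56.7 and 34.7 on LFD (-1.16, SE 0.67). Its lowest LFD library, LFD-c, was below HFD-a, so the diets overlap. They overlap for the other clear-cell markers too, with Atp6v1b1 at 1.22 (SE 1.24), Atp6v0d2 at -0.31 (SE 0.66) and Slc26a4 at no more than 1 count in a library. The basal-cell marker Krt14 went the other way, with 4, 3 and 15 counts on HFD and 1, 0 and 6 on LFD, while Krt5 had 0, 0 and 7 against 3, 5 and 40. Trp63, the third basal-cell marker, was at 0.59 (SE 0.85), and its libraries overlap. Summed markers of basal cells were 36.9 to 63.8 CPM on HFD and 12.2 to 64.2 on LFD, those of clear cells 67.5 to 107 and 89.9 to 187, and those of the epithelium in general 348 to 481 and 386 to 899. All of these ranges overlap. Cdh1, E-cadherin, was the lowest of the epithelium markers at -1.12 (SE 0.51). Among seminal vesicle and prostate genes only Azgp1 (-1.40, SE 0.72) and Svs1 (-1.02, SE 0.79) of 23 passed the filter. Over the settings run for single genes Azgp1 ran from -2.04 to -0.02 and Svs1 from -1.71 to -0.62.

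**Figure D4:**
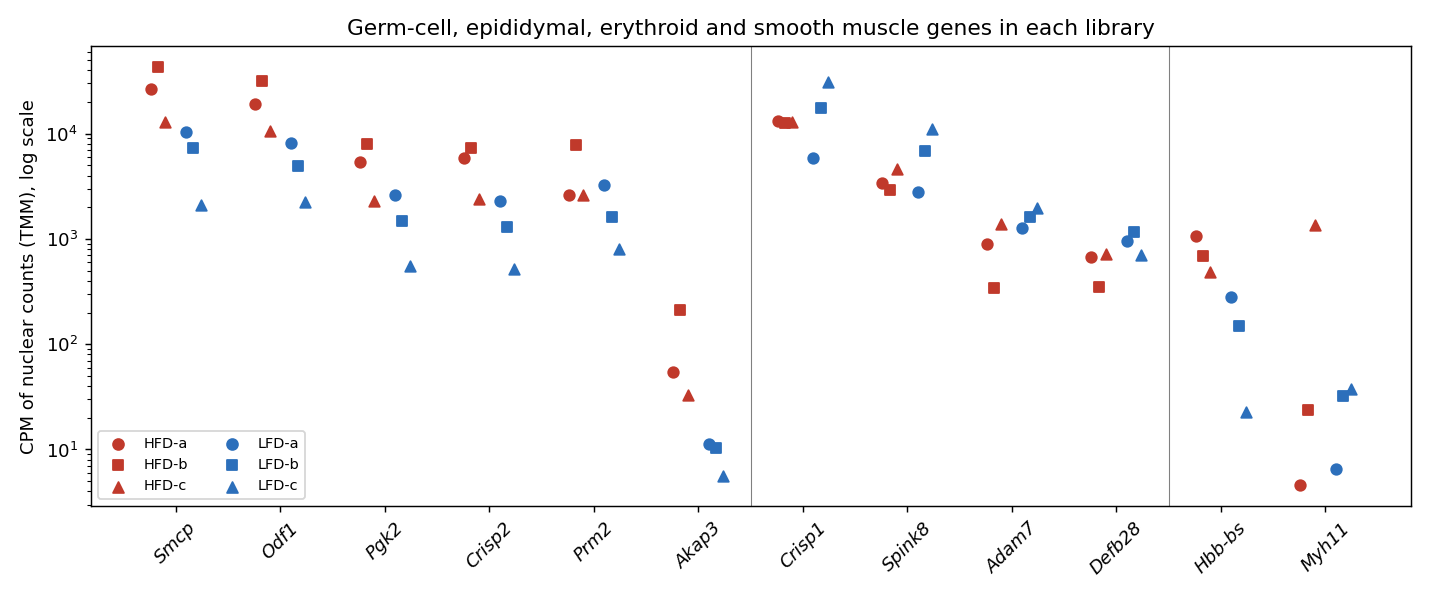
CPM of nuclear counts on a log axis for germ-cell genes (left), epididymal genes (middle) and an erythroid and a smooth muscle gene (right), with 1 symbol for each library. Smcp runs from 43120 in HFD-b down to 2110 in LFD-c, and Crisp1 is highest in LFD-c at 30643. Myh11 reaches 1367 in HFD-c alone.

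Markers of blood, immune cells and connective tissue were detected in every library. Haemoglobin Hbb-bs had 1077, 688 and 484 CPM on HFD and 279, 150 and 22.9 on LFD, a log2 fold change of 2.32 (SE 0.72, adjusted p = 0.260 from edgeR and 0.0275 from DESeq2). All 7 tested erythroid genes of 10 were above 0, with a median of 2.18, and 6 did not overlap (85.7%, where all tested genes gave 8.08%), or 2 with nuclear totals (28.6%, against 3.32%). The erythroid markers summed to 926 to 1708 CPM on HFD and to 42.3 to 482 on LFD. Of 16 tested leukocyte genes of 30, 14 were above 0 and 9 did not overlap (56.2%, where all tested genes gave 8.08%). With nuclear totals 4 did not overlap (25%, against 3.32%), and the median went from 1.69 to 0.99. H2-Aa, a class II histocompatibility chain, had 88.8, 307 and 161 CPM on HFD and 61.7, 36.8 and 21.9 on LFD (2.21, SE 0.59). Tyrobp, a myeloid adaptor, was at 3.23 (SE 0.93) and the complement gene C1qc at 2.98 (SE 0.79), while S100a8, a neutrophil protein, was at -1.01 (SE 0.71). The leukocyte markers summed to 148 to 213 CPM on HFD and to 43.8 to 90.9 on LFD, with the T-cell marker Cd3e at no more than 5 counts in any library. The stromal and smooth muscle list summed to 3284, 1814 and 7919 CPM on HFD and 1888, 916 and 794 on LFD. Sparc, a matrix protein, had 1984, 793 and 1894 CPM on HFD and 1018, 270 and 186 on LFD (1.67, SE 0.68), and the groups overlap. Myh11, smooth muscle myosin, had 4.56, 24.0 and 1367 CPM on HFD and 6.49, 32.4 and 37.7 on LFD, and Acta2, smooth muscle actin, had 0, 10.9 and 897 against 2.43, 61.1 and 51.5. All 16 tested genes of that list were above 0 with a median of 1.71, and without HFD-c 13 of 17 were, with a median of 0.78. Endothelial markers summed to at most 17.2 CPM in any library and adipocyte markers to at most 47.9, in HFD-c. Erythroid and leukocyte markers thus went the same way as germ-cell genes between diets, and their part in the other differences was not tested.

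Ribosomal RNA took a larger share of nuclear counts in the HFD libraries, and whether rRNA was depleted from these libraries is not given in the sources used here. Genes of biotype rRNA held 12.9%, 29.5% and 23.8% in HFD-a, HFD-b and HFD-c, and 10.8%, 6.58% and 2.45% in LFD-a, LFD-b and LFD-c, and the diets do not overlap. Nearly all of it lay on 1 gene, CT010467.1 on chromosome 17 (39846353 to 39848827), with 60765, 227154 and 212096 counts on HFD and 115057, 70914 and 35480 on LFD. Its log2 fold change was 2.45 (SE 1.53, adjusted p = 0.577 from edgeR and 0.00891 from DESeq2). Of 10 tested structural and long noncoding RNAs 5 were above 0 and 5 below, with a median of 0.25, and 2 lay higher without overlap (20%, where all tested genes gave 8.08%), or 0 with nuclear totals (against 3.32%). Rpph1, the RNA of ribonuclease P, had 665, 107 and 81.1 CPM on HFD and 60.8, 24.3 and 6.63 on LFD (3.22, SE 0.88). Its fold change ran from 1.61 to 4.19 over the settings run for single genes. Rn7sk, which holds back transcription elongation, had 143, 137 and 128 CPM on HFD and 46.2, 66.3 and 37.7 on LFD (1.44, SE 0.49), and the HFD libraries lay close together. The long nuclear RNA Malat1 overlapped between diets. Leaving out the rRNA genes before scaling left the germ-cell median at 1.19.

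Protein-coding genes of the X chromosome, which is silenced in meiosis and stays largely repressed in spermatids, took a smaller share of counts on HFD. They took 2.38%, 1.58% and 2.79% of protein-coding counts on HFD and 3.18%, 3.41% and 3.67% on LFD, a mean of 2.25% ± 0.618 (SD, n = 3) against 3.42% ± 0.243 (SD, n = 3). Of 278 tested X-linked genes 185 were below 0, with a median of -0.36, and 54 did not overlap in that direction (19.4%, where all tested genes gave 11%), or 106 with nuclear totals (38.1%, against 24.8%). Among autosomes the median ran from -0.21 to 0.07, and over 5 tested genes of the Y chromosome it was -0.38, with 4 below 0. Nkrf, a repressor of NF-kB target genes on the X chromosome, had 9.11, 6.53 and 9.83 CPM on HFD and 49.5, 119 and 39.2 on LFD, a log2 fold change of -2.99 (SE 0.74, adjusted p = 0.248 from edgeR and 0.0162 from DESeq2).

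Housekeeping functions were at or below the median of all genes. Proteasome subunits had a median of -0.37 over 39 tested genes, with 29 below 0, and 10 did not overlap in that direction (25.6%, where all tested genes gave 11%). With nuclear totals 15 did not (38.5%, against 24.8%). Psmb9, the immunoproteasome subunit, was lowest at -2.05 (SE 0.82) with 2.28, 13.1 and 14.8 CPM on HFD and 50.3, 42.7 and 36.2 on LFD. Only 1 of the 39 had an unadjusted p under 0.05 in that direction (2.56%, where all tested genes gave 3.98%). Cytosolic ribosomal proteins had a median of -0.24 over 54 tested genes, which turned to 0.10 without LFD-a. Chaperones had a median of -0.17 over 39, while their mean was 0.12. Of the 39, 4 lay higher without overlap (10.3%, where all tested genes gave 8.08%) and 2 lower (5.13%, against 11%), or 2 (5.13%, against 3.32%) and 10 (25.6%, against 24.8%) with nuclear totals. Hspa1l, an HSP70 of testis, had the largest fold change at 2.23 (SE 0.89), with 13.7, 102 and 20.9 CPM on HFD and 8.92, 11.05 and 8.66 on LFD. HFD-b set much of it, and without that library it was 0.81. The common chaperone Hsp90ab1 had 722, 588 and 731 CPM on HFD and 1231, 1070 and 1053 on LFD, a difference of -0.72 (SE 0.48) without overlap. Antioxidant enzymes included members of both directions. Gstm5, a glutathione transferase abundant in testis, had 8778, 14188 and 4209 CPM on HFD and 4059, 2334 and 1022 on LFD (1.87, SE 0.77), while glutathione reductase, Gsr, had 22.8, 26.1 and 12.3 against 73.0, 57.5 and 57.1 (-1.63, SE 0.64).

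Lipid and imprinted genes held members of both directions, and immediate early genes were mostly above 0. Of 31 tested genes of sterol and lipid synthesis 22 were below 0, with a median of -0.23, which turned to 0.11 without LFD-c. Insig1, which retains the sterol sensor in the endoplasmic reticulum, had 6.83, 24.0 and 29.5 CPM on HFD and 53.5, 73.7 and 86.6 on LFD (-1.79, SE 0.67). Dgat1, which makes triglycerides, was at 3.40 (SE 1.10), and HFD-c with 3.69 CPM was below LFD-c with 8.15. Of 15 tested immediate early genes 14 were above 0 with a median of 1.154, and 0.73 without LFD-c. With nuclear totals it was 0.63, and 0 genes had an unadjusted p under 0.05 with higher values on HFD (where all tested genes gave 2.22%). In that setting 0 lay higher without overlap (against 3.32%) and 0 lower (against 24.8%). Egr1 (1.88, SE 0.62), Jun (1.60, SE 0.59) and Zfp36 (1.35, SE 0.52) lay higher without overlap in the main setting, 3 of 15 (20%, where all tested genes gave 8.08%). An unadjusted p under 0.05 with higher values on HFD was also found for 3 of 15 (20%, where all tested genes also gave 8.08%). Among 10 tested imprinted genes Grb10, an adaptor that dampens insulin receptor signalling, had 41.0, 122 and 51.6 CPM on HFD and 16.2, 13.3 and 13.8 on LFD (2.30, SE 0.67, adjusted p = 0.248 from edgeR and 0.0209 from DESeq2). Rasgrf1, expressed from the paternal allele, was lower, with 34.2, 82.7 and 38.1 CPM against 110, 138 and 104 (-1.19, SE 0.54).

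Among tested genes without overlap, predicted and clone-based names left out, the smallest p-values in each direction went mostly to genes outside these lists. Adamts2, a procollagen peptidase, had 100, 34.8 and 79.9 CPM on HFD and 4.06, 0.737 and 4.59 on LFD, a log2 fold change of 4.45 (SE 0.85, adjusted p = 0.248 from edgeR and 9.38e-05 from DESeq2). Arhgef3, a guanine nucleotide exchange factor, had 91.1, 63.1 and 51.6 CPM against 1.62, 5.16 and 6.63 (3.87, SE 0.78). Pim1, a serine/threonine kinase, had 221, 274 and 188 CPM against 70.6, 41.3 and 19.9 (2.38, SE 0.55), and the RNA-binding protein gene Mex3d had 435, 255 and 163 against 83.6, 39.8 and 31.6 (2.46, SE 0.56). Zmynd15, a repressor needed in spermatids, was at 3.17 (SE 0.73), Fam219a at 3.62 (SE 0.79) and Lrriq1 at 2.82 (SE 0.65). In the other direction most such genes were at or near 0 counts on HFD. Alg2, a mannosyltransferase of N-glycosylation, had 0, 0 and 2 counts on HFD and 18, 92 and 90 on LFD. Stambp, a deubiquitinase, had 0, 0 and 1 counts against 34, 37 and 33, and Edc3, which promotes mRNA decapping, had 0, 1 and 1 against 35, 44 and 35. Mrpl21 and the zinc-finger gene Zfp563 had 0 counts in all HFD libraries and 13 to 38 in each LFD library, and Zfp560 had 1, 0 and 0 on HFD against 55, 30 and 26. Alg2, Stambp, Edc3, Mrpl21, Zfp563 and Zfp560 passed the filter on low counts through the deeper LFD libraries alone. Their place in this direction is thus partly set by the filter. Slc35f2, a solute carrier, was measured with more counts, 59.2, 71.9 and 107 CPM on HFD against 151, 330 and 506 on LFD (-2.04, SE 0.54). Of the 8866 tested genes, 6 were at 0 in every HFD library, the shallower ones, and 0 genes were so in every LFD library.

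Per kilobase, the highest nuclear genes over the 6 libraries were noncoding genes, sperm genes and epididymal genes. The rRNA gene CT010467.1 and Gm23935 and Mir6236, both annotated as miRNA genes, led with means of 71465, 115552 and 46259 CPM per kb in that order, followed by Smcp with 18743, Odf1 with 11578, Crisp1 with 10924 and Spink8 with 6451. The order over pooled libraries is not that of each diet, as the levels of Smcp and Crisp1 by library show. Of the rest of the first 15, Gstm5, Prm2, BC106175, Dbil5, Wbscr25 and Gm15564 had log2 fold changes between 1.21 and 1.97, and B2m and Cd52 were at -0.38 and -0.57. Nuclear pseudogenes that match mtDNA-encoded transcripts formed a group of their own. Together the 15 such genes held a mean of 0.235% ± 0.116 (SD, n = 3) of nuclear counts in HFD libraries, against 0.0677% ± 0.0248 (SD, n = 3) in LFD libraries. All 14 that were tested were above 0 without overlap, where all tested genes gave 8.08%, with a median of 2.41. mtDNA-encoded counts moved the same way, at 84.3%, 79.0% and 78.1% of all counts on HFD and 63.4%, 64.7% and 43.5% on LFD, and reads of the copies and of mtDNA cannot be told apart here. With the copies left out edgeR called 0 genes, with 1057 at an unadjusted p under 0.05, and the germ-cell median was 1.21. DESeq2 was not run in this setting.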

How the data were processed

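Raw counts of reads per gene were deposited by the authors for 6 sperm libraries, 3 per diet. Per the study's methods, single-end reads were trimmed with BBDuk, mapped to GRCm38 with STAR and counted with featureCounts. No strand setting is stated, so overlapping and antisense genes, and near-identical copies, cannot be told apart. The table also holds a gene length, used only for levels per kb.

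Genes whose first chromosome entry is MT were removed. The remaining counts were tested with edgeR 4.0.16 (R 4.3.3; filterByExpr with a minimum count of 10, TMM factors from nuclear genes, two-sided quasi-likelihood test of HFD over LFD, Benjamini-Hochberg adjustment over all 8866 tested genes, calls at an adjusted p under 0.05). The script was tested on simulated data. Alternatives were DESeq2 1.42.0, limma-voom (limma 3.58.1), a re-implemented NOISeq (probability above 0.8), 4 other scalings, other filters, a block for the number in the column names, and leaving out each library. CPM values are counts over the TMM-scaled nuclear library size. Total counts per library were 2560219 to 4062321, of which 15.7% to 56.5% were nuclear. Intervals for low counts cover counting error only.

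Named genes were the 8 with the smallest p in each direction among genes without overlap (predicted and clone-based names left out), the 15 highest per kb, the 3 most abundant and the 2 extreme members of each list, and cell type markers. Others were chosen after their values were seen. Members and lists were chosen with earlier results of these data known, so list counts and medians are descriptions without a test. Nuclear copies of mtDNA genes were found with BLAST 2.17.0 (identity of at least 90% over at least 50% of a transcript). Promoter sequences were from RefSeq. The other tables of the series were not used here.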

Additional observations from a re-analysis of the deposited data

How the results depend on the processing

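The count of genes called by edgeR's quasi-likelihood test stayed at 0 under 4 other scalings, a stricter filter, a threshold of 0.1 and each left-out library. It was 52 with no filter on low counts, 254 with DESeq2, 97 with the re-implemented NOISeq and 0 with limma-voom. The count at an unadjusted p under 0.05 was 1069, and it was 2206 with no filter and 601 to 1715 with 1 library left out (1715 without HFD-c, 601 without LFD-b, 609 without LFD-c). The share of these that were higher on HFD was 67%, against 14.4% with nuclear totals (197 of 1366), 57.8% with the upper quartile and 51.4% to 76% with 1 library left out. With nuclear totals the median of germ-cell genes was 0.49 and that of epididymal genes -0.96. With 1 library left out they ran from 0.66 to 1.70 and from -0.57 to -0.22. Of the smaller lists, 7 changed sign under some setting: ribosomal proteins (-0.63 to 0.10 with 1 library left out, above 0 without LFD-a), structural and long noncoding RNAs (-0.39 with nuclear totals, -0.04 with the stricter filter), chaperones (0.12 as a mean, 0.05 without LFD-c), epididymal epithelium (0.08 as a mean), histones (0.10, and from -1.52 to 0.19 over all settings, below 0 in 8 of 16), sterol and lipid synthesis (-0.38 to 0.11) and imprinted genes (-0.66 to 0.28), both above 0 without LFD-c. The causes were not tested. Crisp1 ran from -0.91 to 0.12 with 1 library left out, above 0 without LFD-c, with a lowest value of -1.15 over all settings. The other fold changes put through the settings for single genes kept their sign.

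The number after the diet letter in the column names is shared by 2 pairs of libraries, whose deviations correlated at 0.099 and -0.13. Neither the labels nor the column names say whether this shared number marks a batch. With it as a replicate block, 2 genes were called and 622 had an unadjusted p under 0.05. The column names also end in further numbers, and that of LFD-c alone holds an extra one. What these numbers mean is not given, and their part in the differences of LFD-c was not tested. Depth limits the HFD libraries most, where 3 counts are 3.69 to 6.83 CPM.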

Other observations

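Noncoding classes are covered only in part by the lists. The 99 tested lincRNA genes had a median log2 fold change of 0.50 and the 68 tested antisense genes one of 0.56, against -0.05 over all tested genes, while the counting is not stated to use strand. Other classes differed, with -0.13 for 52 genes of biotype TEC, -0.01 for 46 processed transcripts and -0.50 for 12 bidirectional promoter lncRNAs. The median was -0.47 for 10 sense intronic genes and 1.76 for 8 miRNA genes. No hypothesis was tested.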
